A study of Mus musculus with 2 samples.

Results

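The genes described here encode the lysosomal proton pump, the cathepsins and the main membrane proteins of the lysosome, measured in mouse liver with and without Pnpla8. They were taken as every non-control probe whose gene name on the array was a subunit of the pump (Atp6v0, Atp6v1) or an accessory protein of it (Atp6ap), 1 of the cathepsins A to H, K, L, O, W and Z, Lamp1 to Lamp3, Scarb2, or Mcoln1 to Mcoln3. This gave 52 of the 39429 probes and 45 of 31044 gene names: 25 pump genes, 13 cathepsins and 7 membrane proteins.

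The study compared 1 pool of Pnpla8-/- (KO) livers with 1 pool of WT livers, both of strain C57BL/6N, each hybridised to a 1-colour Agilent array. Each pool combined liver RNA of 5 animals. Their age is 6 weeks in the sample labels and 8 weeks in the series description, and the labels give neither their sex nor the part of Pnpla8 that was deleted. With 1 array per genotype there was no replicate check, no difference was tested, and genotype, pool and array position cannot be told apart.

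Lysosomes digest material delivered by endocytosis and autophagy. The V-ATPase pump acidifies them: its cytosolic V1 sector splits ATP and its membrane V0 sector carries protons inward. Cathepsins are the proteases that work in this acid, while LAMP proteins line the membrane, SCARB2 carries glucocerebrosidase to the lysosome and mucolipins are its cation channels. Many of these genes share a transcriptional programme driven by TFEB and TFE3, which bind E-box motifs near gene starts. In liver, hepatocytes and the resident macrophages, the Kupffer cells, both have many lysosomes.

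Promoter sequence is shown first, because the E-box of that programme is the sequence feature these genes are known to share. In the RefSeq promoter windows of GRCm38.p6, which run from 250 bases before a gene start to 50 bases after it, 34 of the 45 genes had an entry, with 38 windows. The E-box CACGTG, which reads the same on both strands, occurred in 11 of these 38 windows (28.9%), against 7.15% of all 32851 windows. A match describes the letters and does not show binding. The 100 bases just before the start are printed for the 3 genes with the most matches in that stretch, for Ctsd with 1 there, and for the pair of genes with lower KO signal that are described further on, Mcoln2 and Ctsc. CACGTG is in capitals.
Lamp1, chr8:13159061-13159160, plus strand: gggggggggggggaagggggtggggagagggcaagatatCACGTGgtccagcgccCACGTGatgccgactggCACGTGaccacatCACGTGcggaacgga
Mcoln1, chr8:3500419-3500518, plus strand: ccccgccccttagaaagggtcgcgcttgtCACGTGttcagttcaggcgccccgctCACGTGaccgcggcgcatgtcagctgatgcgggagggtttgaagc
Atp6v0b, chr4:117887330-117887429, minus strand: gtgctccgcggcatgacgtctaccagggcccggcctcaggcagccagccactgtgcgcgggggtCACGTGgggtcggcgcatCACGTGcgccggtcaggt
Ctsd, chr7:142387828-142387927, minus strand: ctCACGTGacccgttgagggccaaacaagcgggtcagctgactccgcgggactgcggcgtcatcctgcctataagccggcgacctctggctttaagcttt
Mcoln2, chr3:146150074-146150173, plus strand: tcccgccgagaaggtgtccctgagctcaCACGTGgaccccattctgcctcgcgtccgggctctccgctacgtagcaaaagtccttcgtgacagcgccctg
Ctsc, chr7:88277985-88278084, plus strand: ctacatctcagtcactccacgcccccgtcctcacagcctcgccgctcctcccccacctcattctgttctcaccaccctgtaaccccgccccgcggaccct
Lamp1 held 4 matches, at positions -61, -45, -28 and -15 from the start. Mcoln1 held 2, Atp6v0b 2, Mcoln2 1 and Ctsc 0. The other genes with a match were Atp6v0d1, Atp6v0e, Atp6v1a, Ctsa, Ctsf and Ctsl.

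Signals are given as the scanner's processed signal divided by the array's own 75th percentile, which was 1018 on the KO array and 1207 on the WT array, and are called scaled signals. A probe's scaled signal can be set against the same probe on the other array but not against another probe. The ratio is KO over WT on the log2 scale. The scanner's error model put an error of 0.20 to 0.30 (median 0.20) on a member's log2 ratio, nearly all of it a share proportional to the signal. This is an error of the spots, not of the animals. Spots of the same probe differed by a median SD of 0.05 in log2 ratio (298 probes).

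Of the 45 genes, 40 were well above background on both arrays, which is called measured. Another 4 were not well above background on either array and 1, Ctse, was so in the WT pool alone. The measured genes as a whole lay where the rest of the transcriptome lay. Their median log2 ratio was 0.07, against 0.04 over all 19935 measured genes, and 20 were above and 20 below that overall median. The median size of the log2 ratio, sign ignored, was 0.17 in the lysosomal genes and 0.18 in all measured genes, and 36 of the 40 were within 1.5-fold. At least 2-fold higher in the KO pool was 1 gene (2.5%, against 1.29% of all measured genes), Atp6v0d2, which was also the 1 gene past 1.5-fold higher (4.41% of all). At least 2-fold lower were 0 genes (1.85% of all), and at least 1.5-fold lower were 3 (7.5%, against 5.93% of all): Ctsc, Mcoln2 and Mcoln1, of which Mcoln1 rests on a disagreement between probes described below. Each of these counts is small and its share is near that of all genes.

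**Figure D1:**
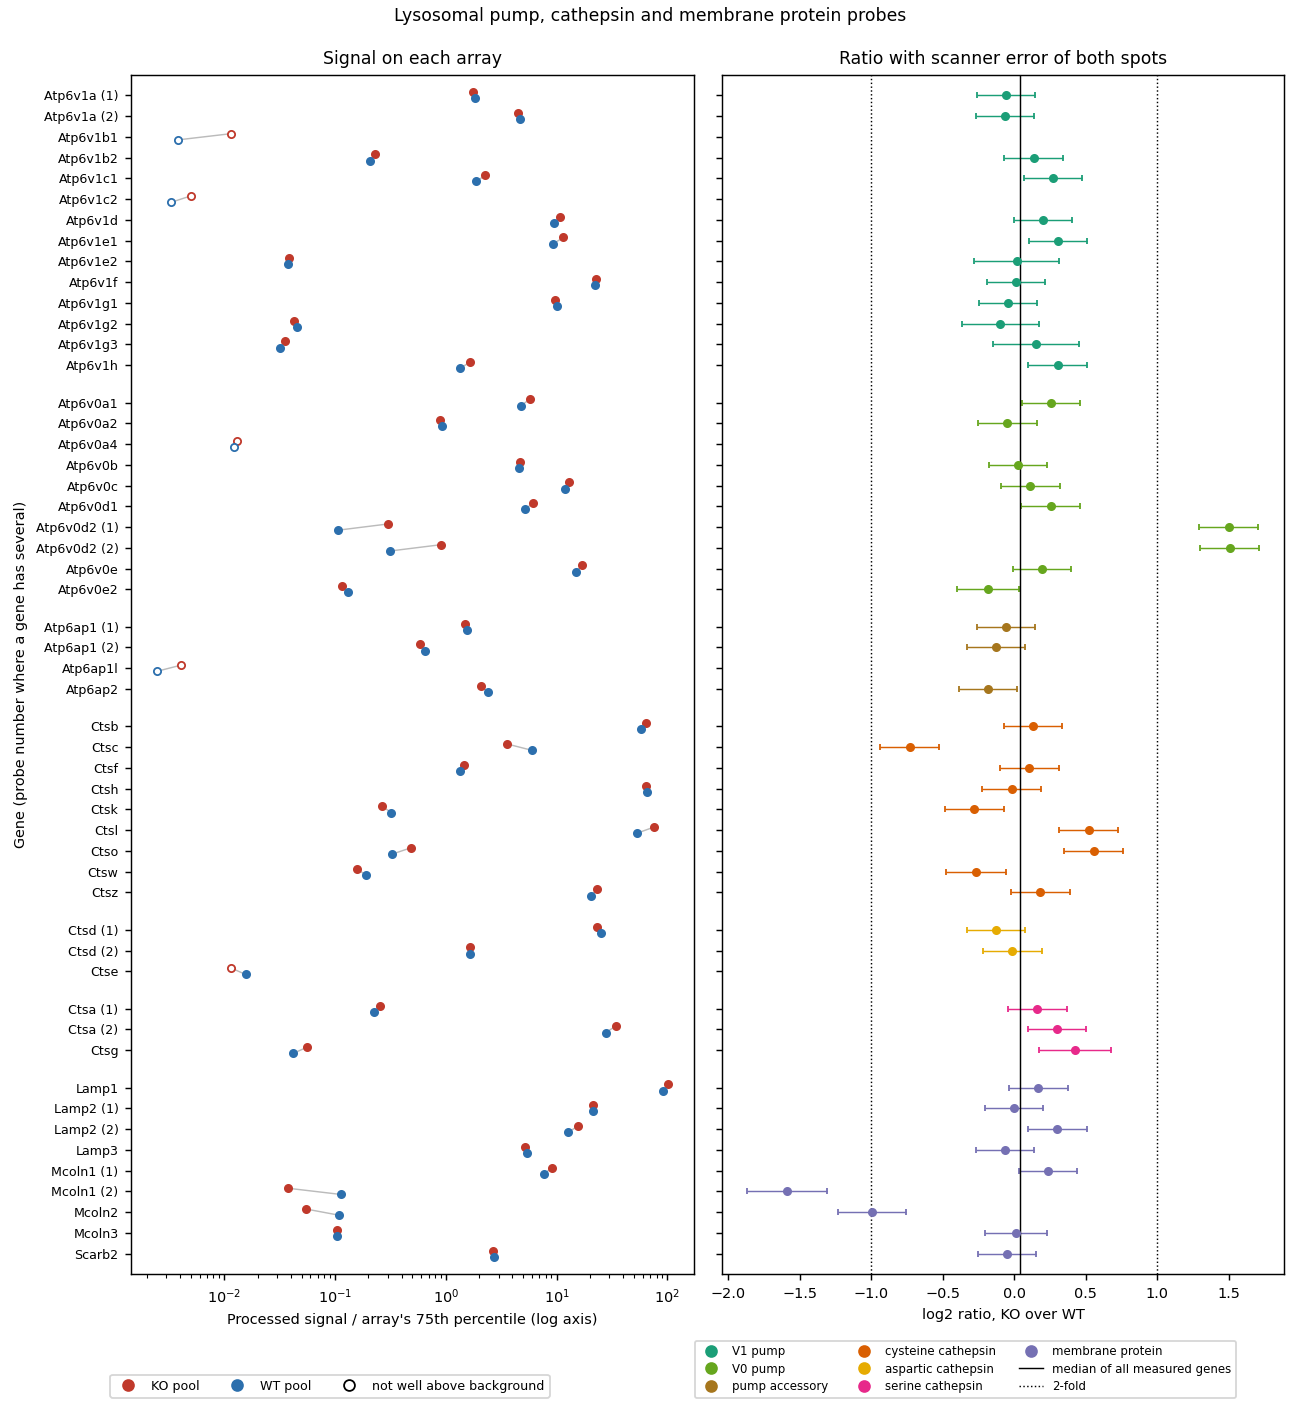
Left, scaled signal (processed signal over the array's 75th percentile, log axis) of each member probe in the KO pool (red) and the WT pool (blue), with open points not well above background. Right, log2 ratio of KO over WT for the 47 probes measured on both arrays, with bars for the scanner's error of the 2 spots, a solid line at the median of all measured genes (0.04) and dotted lines at 2-fold; both Atp6v0d2 probes lie right of 2-fold and 1 of the 2 Mcoln1 probes lies left of it.

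Of the 25 pump genes 21 were measured, with a median log2 ratio of 0.11, a value that was -0.13 without scaling between the arrays and -0.05 with spike-in scaling, where the median of all genes was lower too (-0.21 and -0.12). Relative to the median of all genes the pump median was 0.07 higher in each of these settings. Leaving out scaling or using spike-ins shifts all genes by the same amount, so it cannot change this difference. With quantile scaling the pump median was 0.02 above that of all genes, and with loess scaling also 0.02 above. Apart from Atp6v0d2, the 20 measured pump genes ran from -0.19 to 0.31 and all were within 1.5-fold.

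Atp6v0d2 encodes the d2 isoform of the V0 stalk subunit, which is best known from osteoclasts and kidney. Probe A_66_P124179 read 0.899 in the KO pool and 0.317 in the WT pool, and probe A_52_P71686 read 0.301 in the KO pool and 0.106 in the WT pool. The 2 probes gave log2 ratios of 1.51 and 1.5, and together a 2.83-fold higher signal. Both probes were higher in the KO pool by far more than the scanner's error, and 68 of the 19935 measured genes (0.341%) had a ratio as high or higher. The array file places the probes on chromosome 4 in build mm9, minus strand, from 19805367 to 19805426 and from 19804304 to 19804363, so they do not overlap. The first 30 of the 60 bases of each are printed, since these 2 separate oligos carry the largest difference among the lysosomal genes.
A_66_P124179: agcagaatgcatctcacagaggcatcgaac
A_52_P71686: acagaaataatgtgaactaattttactata
The log2 ratio of Atp6v0d2 ran from 1.26 (without scaling, and with the normexp background) to 1.56 over the alternatives, and stayed past 2-fold in all of them.

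The d1 isoform, which fills the same place in the pump in most cells, had a scaled signal of 6.13 in the KO pool and 5.14 in the WT pool. Its log2 ratio of 0.25 was little more than the scanner's error of 0.20, and of this pair of isoforms d2 alone was past 1.5-fold. Atp6v0d2 is also known as more abundant in female than in male mouse liver. Of 16 measured genes on a list of female-biased liver genes without Atp6v0d2, 12 were above 0, with 4 past 2-fold higher and 1 past 2-fold lower, a median of 0.25 and a summed scaled signal of 590.7 in the KO pool and 359.1 in the WT pool. Of 14 measured male-biased genes 9 were below 0 and 3 at least 2-fold lower, with a median of -0.08 and summed signals of 189.3 in the KO pool and 241.9 in the WT pool. Hamp2 gave 207.2 of the female-biased sum in the KO pool and 107.0 in the WT pool. Cyp2a4 gave 178.2 of that sum in the KO pool and 155.9 in the WT pool. In the male-biased sum Ugt2b38 gave 84.2 in the KO pool and 89.6 in the WT pool. Mup20 gave 75.3 of it in the KO pool and 102.1 in the WT pool. Set against the median of all measured genes, 10 female-biased genes were above it and 6 below. Of the male-biased genes 5 were above that median and 9 below. Osteoclast markers were at a median of -0.04 (5 of 7 measured, none past 1.5-fold; summed signals 51.0 in the KO pool and 52.6 in the WT pool, of which Acp5, also on the hydrolase list, gave 50.1 in the KO pool and 51.6 in the WT pool), and Calcr and Mmp9 were not well above background on either array. Kidney epithelial markers were at a median of 0.36 over the 4 of 8 that were measured, with summed signals of 0.591 in the KO pool and 0.440 in the WT pool. Among them Slc26a4, the anion exchanger pendrin, was 2.02-fold higher, and Umod, Slc12a1, Slc12a3 and Kap were not well above background on either array. The part of any of these in the Atp6v0d2 value was not tested.

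The a subunit of V0 holds the channel through which protons pass and exists in several isoforms. Atp6v0a1 read 5.71 in the KO pool and 4.77 in the WT pool, a log2 ratio of 0.26. Atp6v0a2, the Golgi and endosomal isoform, read 0.888 in the KO pool and 0.918 in the WT pool, a ratio of -0.05. Atp6v0a4, the kidney isoform, was not well above background on either array (0.0131 in the KO pool and 0.0123 in the WT pool). The a3 isoform has the gene name Tcirg1 and so falls outside the name rule. It read 1.80 in the KO pool and 2.05 in the WT pool, a ratio of -0.19. The proton-carrying ring is built from Atp6v0c, which read 12.9 in the KO pool and 11.9 in the WT pool (0.11), with Atp6v0b at 4.69 in the KO pool and 4.602 in the WT pool (0.03). The small e subunit had 17.0 in the KO pool and 14.9 in the WT pool (Atp6v0e, 0.19), and its second isoform Atp6v0e2 had 0.115 in the KO pool and 0.130 in the WT pool (-0.18). None of these V0 genes other than Atp6v0d2 was past 1.5-fold.

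The V1 sector had 11 of 13 genes measured, with a median of 0.14 and a range from -0.10 to 0.31. Atp6v1a, the catalytic A subunit, had 2 probes that gave log2 ratios of -0.06 and -0.06. Its non-catalytic partner Atp6v1b2 read 0.228 in the KO pool and 0.207 in the WT pool (0.14), while Atp6v1b1, the kidney isoform, was not well above background on either array. The highest V1 ratios were those of the stalk subunit Atp6v1e1 (0.31; 11.54 in the KO pool and 9.33 in the WT pool), the regulatory subunit Atp6v1h (0.30; 1.66 in the KO pool and 1.35 in the WT pool) and Atp6v1c1 (0.27; 2.28 in the KO pool and 1.89 in the WT pool), which joins the 2 sectors. The isoforms of the stalk subunits did not separate: Atp6v1g1 had -0.04, the neuronal isoform Atp6v1g2 -0.10, the kidney isoform Atp6v1g3 0.15 and the testis isoform Atp6v1e2 0.02, the last 3 at scaled signals under 0.05, where the scanner's error reached 0.30. Atp6v1d (0.20) and Atp6v1f (0.01), parts of the rotating shaft, were also within 1.5-fold, and Atp6v1c2 was not well above background on either array.

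The accessory proteins help assemble the pump. Atp6ap1 had 2 probes with ratios of -0.06 and -0.13, and Atp6ap2, also called the prorenin receptor, read 2.09 in the KO pool and 2.38 in the WT pool (-0.19). Atp6ap1l was not well above background on either array. Genes that assemble, traffic or regulate the pump, a list kept apart from the subunits, had a median of 0.00 over 13 measured genes, with 0 past 1.5-fold. Its largest log2 ratios in either direction were those of Dmxl2 (0.38) and Rogdi (0.25), and of Tbc1d24 (-0.34) and Dmxl1 (-0.18).

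The 12 measured cathepsins had a median of 0.12, close to that of the pump: the pump median minus the cathepsin median was -0.01. The cathepsins were spread more widely, with an interquartile range of 0.40, against 0.30 in the pump and 0.27 in the pump without Atp6v0d2. Over all measured genes the range was 0.35, between these groups. Individual cathepsins stood on both sides of 0. The median was 0.0034 with quantile scaling, -0.13 without scaling and -0.04 with spike-in scaling.

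**Figure D2:**
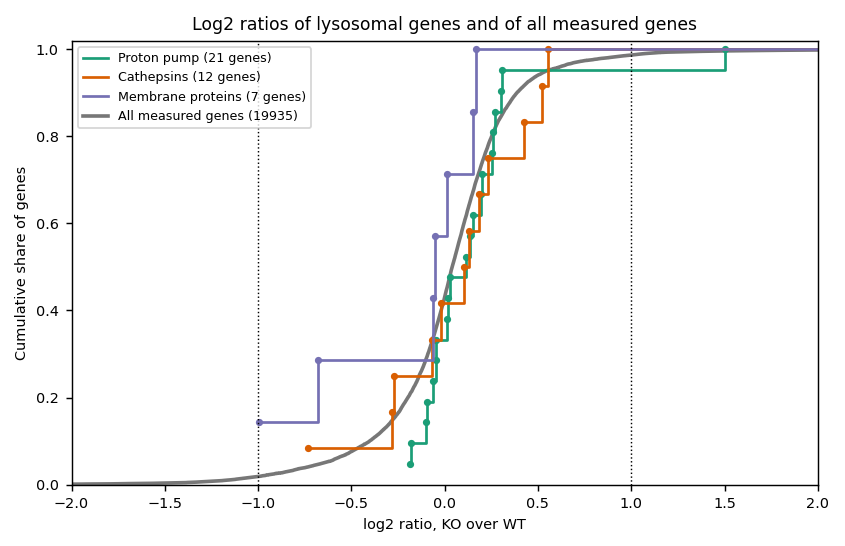
Cumulative share of genes (vertical axis) by log2 ratio of KO over WT (horizontal axis, shown from -2 to 2) for 21 pump genes, 12 cathepsins, 7 membrane proteins and all 19935 measured genes (grey), with dotted lines at 2-fold. The pump curve climbs between -0.19 and 0.31 apart from Atp6v0d2 at 1.5, and the cathepsin curve spans -0.73 to 0.56.

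Lower in the KO pool was Ctsc, cathepsin C or dipeptidyl peptidase I, which activates granule proteases of immune cells. It read 3.59 in the KO pool and 5.96 in the WT pool, which is 1.66-fold lower, a log2 ratio of -0.73 with a scanner error of 0.20. Of all measured genes 4.05% had a ratio as low or lower. Its log2 ratio lay between -0.98 and -0.67 over the alternatives. The array has a second probe described as a predicted cathepsin C transcript, named ENSMUST00000131108 in the file and so outside the name rule. It read 0.0370 in the KO pool and 0.0740 in the WT pool, a log2 ratio of -0.999, so both oligos were lower in the KO pool. The file places the first on chromosome 7 of mm9 from 95458436 to 95458495 and the second from 95435428 to 95435487, both on the plus strand. Their first 30 bases show that they are different sequences.
A_52_P195839: cgggtctttatcactcacagagtgatttag
A_55_P2072005: ttgttcatgcagctgggaactgtgggaatg

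Cathepsins K and W, known from osteoclasts and from cytotoxic lymphocytes, were lower by less than 1.5-fold. Ctsk read 0.266 in the KO pool and 0.322 in the WT pool (-0.28). Ctsw read 0.156 in the KO pool and 0.189 in the WT pool (-0.27), on a spot whose surrounding background carries the scanner's outlier mark. Ctse, an aspartic protease of stomach and immune cells, was well above background in the WT pool alone (0.0116 in the KO pool and 0.0156 in the WT pool), and no fold can be given because the lowest signal well above background on the KO array, 0.0176, exceeds the WT value.

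The highest cathepsin ratios were those of Ctso and Ctsl. Ctso, a cysteine protease, read 0.484 in the KO pool and 0.330 in the WT pool, 1.47-fold higher (log2 0.56). Ctsl, a major endopeptidase of hepatocyte lysosomes, read 75.9 in the KO pool and 53.0 in the WT pool, 1.43-fold higher (log2 0.52). Both stayed above 0 in every alternative, with lowest values of 0.31 and 0.27 without scaling, and Ctso passed 1.5-fold with median scaling (0.62) and with quantile scaling (0.60). Ctsg, a granule protease of neutrophils and mast cells, had 0.43 at a low scaled signal of 0.0563 in the KO pool and 0.0419 in the WT pool.

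The remaining cathepsins, among them the abundant hepatocyte proteases, were within 1.5-fold. Ctsb read 64.0 in the KO pool and 58.4 in the WT pool (0.13), and Ctsh, an aminopeptidase, read 64.3 in the KO pool and 65.1 in the WT pool (-0.02). Ctsd, the main aspartic protease, had probes at -0.13 and -0.01. Ctsa, the serine carboxypeptidase that protects galactosidase and neuraminidase, had probes at 0.30 and 0.16. Ctsz, a carboxypeptidase, had 0.18 and Ctsf 0.11.

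The 7 membrane proteins had a median of -0.05, which was 0.08 among probes above the median signal, where Mcoln2 and the dimmer Mcoln1 probe drop out. Lamp1 read 102.2 in the KO pool and 90.9 in the WT pool (0.17). Lamp2, which makes several splice forms with different tails, had 2 probes designed on different transcripts, with ratios of 0.00 for NM_010685 and 0.30 for NM_001017959. Scarb2 had -0.05 and Lamp3, which is induced in maturing dendritic cells, -0.06.

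The mucolipins differed most within this group. Mcoln2, a channel best known from immune cells, read 0.0548 in the KO pool and 0.109 in the WT pool, 1.99-fold lower (log2 -0.996, scanner error 0.24). It lay just inside the 2-fold limit, passed it without scaling (-1.24) and with spike-in scaling (-1.16), and had -0.47 with the normexp background, short of 1.5-fold. Mcoln3 had 0.104 in the KO pool and 0.103 in the WT pool (0.01).

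Mcoln1, the channel mutated in mucolipidosis type IV, had 2 probes that pointed in opposite directions. The probe designed on the RefSeq transcript NM_053177 read 9.14 in the KO pool and 7.77 in the WT pool, a log2 ratio of 0.23. The other, designed on the cDNA AK008732, which the file describes as an unclassifiable product from stomach and which had no entry in the RefSeq table, read 0.0379 in the KO pool and 0.114 in the WT pool, a log2 ratio of -1.59. Their median, -0.68, is what put Mcoln1 among the genes 1.5-fold lower, and by its brightest probe it was not lower. The file places the RefSeq probe on chromosome 8 of mm9 from 3515110 to 3515169 and the cDNA probe from 3513500 to 3513559, both on the plus strand. Which transcript the cDNA probe reads was not settled by the files. The first 30 bases of the disagreeing oligos, and of the Mcoln2 probe on chromosome 3 (145858409 to 145858468), are these.
Mcoln1, A_51_P482029: tttttagaatttgctttaaaagatctgcgt
Mcoln1, A_55_P1985698: aattagagacgacttgtggaaatcagctct
Mcoln2, A_55_P2078433: gtggtggggatttgcccttgtcatggaagg

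Markers of immune cells and of other liver cells were measured beside Ctsc, Ctsw, Ctsk and Mcoln2. Macrophage and Kupffer cell markers were below 0 in 19 of 19 measured genes of a list of 20, and 10 were at least 2-fold lower, with a median of -1.02 and a summed scaled signal of 61.3 in the KO pool and 124.9 in the WT pool. T and NK cell markers had a median of -0.88 over 12 of 15 genes (summed signals 3.87 in the KO pool and 5.92 in the WT pool; Klrk1 and Ncr1 not well above background on either array). Dendritic cell markers had -0.81 over 11 of 12 genes (39.7 in the KO pool and 64.0 in the WT pool; Xcr1 not well above background on either), B cell markers -0.80 over 6 of 8 (0.720 in the KO pool and 1.18 in the WT pool; Blk and Pax5 not above background) and neutrophil markers -0.13 over 8 of 11 (61.9 in the KO pool and 60.2 in the WT pool; Ngp not above background). Csf3r alone gave 60.0 of the neutrophil sum in the KO pool and 57.4 in the WT pool. The lowest neutrophil markers were S100a8 (3.37-fold lower) and S100a9 (3.13-fold lower). The other measured neutrophil markers had log2 ratios of -0.65 (Retnlg), -0.19 (Mpo), -0.08 (Prtn3), -0.01 (Elane), 0.06 (Csf3r) and 0.19 (Camp). The lowest ratios of the dendritic list were those of the MHC class II antigen-presentation genes H2-Aa (-1.68), H2-Eb1 (-1.66), H2-Ab1 (-1.59) and Cd74 (-1.42). Itgax had -1.14, Cd209a -0.81 and Flt3 -0.57. The rest differed less: Siglech (-0.27), Clec9a (-0.26), Ccr9 (-0.08) and Zbtb46 (0.11). Siglech gave 25.2 of the dendritic sum in the KO pool and 21.2 in the WT pool, higher in the KO pool although its ratio was below 0. The sum takes the mean signal of its 2 probes and the ratio the median of their log2 ratios. Its probes therefore disagreed in direction. Cathepsin S, a protease of antigen-presenting cells outside the name rule, read 5.70 in the KO pool and 12.8 in the WT pool, 2.24-fold lower. Lower medians were not limited to immune cells. Stellate cell and fibroblast markers had a median of -0.36, with 9 of 10 genes below 0. Endothelial markers had a median of -0.22, with 7 of 10 below 0. Hepatocyte markers had a median of 0.21, with all 10 well above background on both arrays and summed signals of 1694 in the KO pool and 1460 in the WT pool. The part of these cells in the cathepsin and mucolipin values was not tested, and in whole-liver RNA fewer cells of a type cannot be told apart from less RNA per cell.

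**Figure D3:**
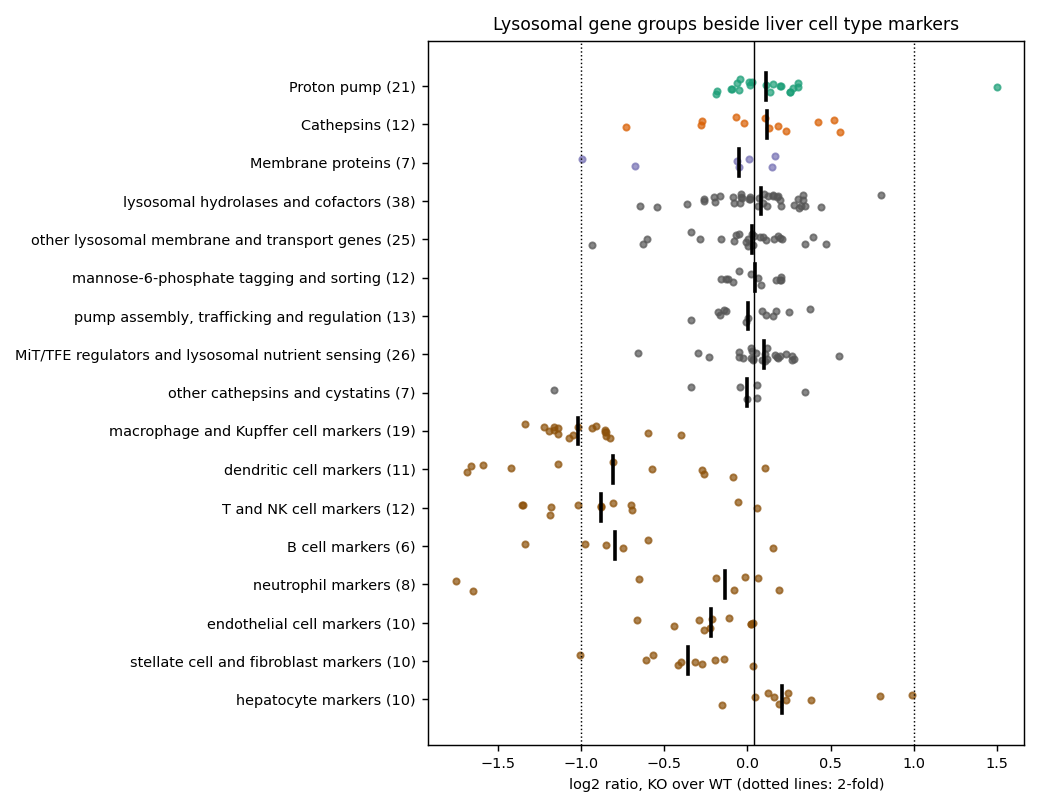
Log2 ratio of KO over WT (horizontal axis, dotted lines at 2-fold) of each measured gene (points) in the pump, cathepsin and membrane protein groups, in other lysosomal lists (grey) and in cell type marker lists (brown), with list medians as black bars, the number of measured genes in brackets and a thin line at the median of all measured genes. Lysosomal medians lie between -0.05 and 0.12, and macrophage, dendritic, T and NK, and B cell marker medians lie between -1.02 and -0.80.

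The rest of the lysosomal pathway lay where the members did. Of 38 lysosomal hydrolases and cofactors, all measured, 36 were within 1.5-fold and the median was 0.08. The endopeptidase legumain, Lgmn, read 8.93 in the KO pool and 14.0 in the WT pool, 1.56-fold lower. Prcp, a carboxypeptidase, had -0.54. Other lysosomal membrane and transport genes had a median of 0.03 over 25 genes, of which 3 were at least 1.5-fold lower: the tetraspanin Cd63 (1.91-fold; 3.84 in the KO pool and 7.33 in the WT pool), the lipid transporter gene Abca2 (1.54-fold) and the nucleoside transporter gene Slc29a3 (1.52-fold). Npc1, the cholesterol exporter, had 0.47.

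Genes that tag and sort enzymes through mannose-6-phosphate had a median of 0.04 over 12 measured genes and none was past 1.5-fold. The largest values there were 0.20 for the adaptor Gga1, 0.20 for the uncovering enzyme Nagpa and 0.19 for the retromer subunit Vps26a. Cystatins, which inhibit cathepsins, were measured with the cathepsins outside the rule: Cst3 read 21.9 in the KO pool and 21.0 in the WT pool (0.06), and Cstb had 0.06. Stfa2 had 0.35 and Stfa3 -0.34, at scaled signals under 0.08. That list had a median of -0.0017 over the 7 of 18 genes measured, with Ctss the 1 gene past 1.5-fold.

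Of the 4 transcription factors of the programme's family, Tfeb, Tfe3 and Mitf were within 1.5-fold. Tfec was the 1 past 1.5-fold, lower in the KO pool at a low scaled signal. Tfeb read 0.205 in the KO pool and 0.202 in the WT pool (0.02), Tfe3 2.004 in the KO pool and 2.45 in the WT pool (-0.30) and Mitf 0.500 in the KO pool and 0.595 in the WT pool (-0.23). Tfec, the family member of macrophages, read 0.0650 in the KO pool and 0.103 in the WT pool (-0.66). With the Rag, Ragulator, FLCN and GATOR genes that control these factors from the lysosome surface, the list had a median of 0.10 over 26 measured genes, 20 of them above 0, with no other gene past 1.5-fold. Set against the median of all measured genes, 15 of the 26 were above and 11 below. Nprl3, a GATOR1 subunit, had the highest ratio (0.55) and Rragc had 0.28. mRNA levels of these factors do not show their activity, which is set largely by phosphorylation and location in the cell.

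**Figure D4:**
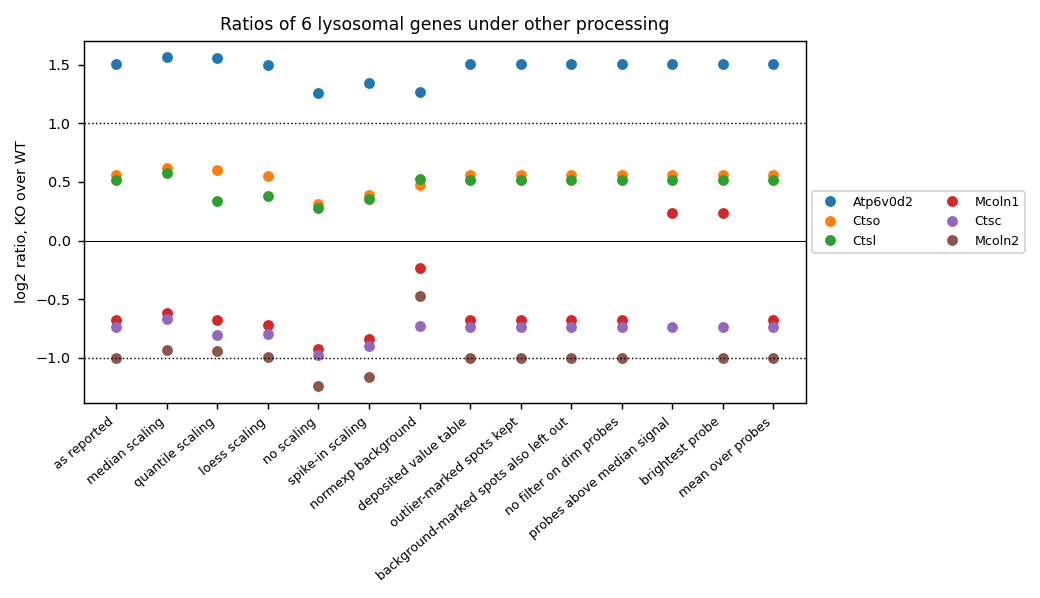
Log2 ratio of KO over WT (vertical axis, dotted lines at 2-fold) of 6 lysosomal genes as reported and under each alternative that gives a value per gene (horizontal axis, 1 setting per column). Atp6v0d2 lies between 1.26 and 1.56 throughout, Ctsc between -0.98 and -0.67, and Mcoln1 is above 0 in the 2 settings that drop its dimmer probe.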

How the data were processed

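RNA from pooled livers was labelled with Cy3 per the labels' protocols and hybridised to 2 arrays, 1 per genotype. The deposited scanner files hold spot intensity on a linear scale, and the submitters' processing notes name Agilent Feature Extraction 11.5.1.1; probe coordinates are in mm9 per the file headers. The deposited value table holds the same intensity divided by a constant per array (1018.65 KO, 1207.25 WT); its column medians were 0.0763 (KO) and 0.0800 (WT), it is linear and not centred, and no source used here says why these constants were chosen. No other per-sample column was left unused (0).

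Processed signals were divided by the 75th percentile of the array's non-control spots and put on the log2 scale. Spots with an outlier mark on the spot itself were left out (170 KO, 119 WT). Marks on the local background (a further 743 KO and 777 WT) were ignored, because the background subtracted was the fitted surface for 100% of spots. Probes well above background on both arrays were measured; a gene was the median of its probes. The array's names and the RefSeq symbol matched for 51 of 52 member probes. No test, p-value or replicate left out was possible with 1 array per group. Named genes were all members, and in each lysosomal list up to 4 with the largest ratio, of which some are not reported here. Members and lists were chosen with earlier results of these data known. Planted folds in simulated data served to test the steps. Pnpla8 itself read 0.00437 in the KO pool, not well above background, and 0.120 in the WT pool, at least 6.81-fold lower; whether its probe lies in the deleted part is unknown. No spot was saturated (0), and 65.6% (KO) and 70.1% (WT) of spots were well above background. The number of arrays limits the precision.

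Alternatives were 4 other scalings or none, a normexp background (offset 50), the deposited table, other spot and probe filters, and other summaries; leaving out background-marked spots was added after seeing the data. Python 3.11.15, pandas 2.3.3, numpy 2.4.6, statsmodels 0.14.6 (loess, span 0.3), limma 3.58.1 and R 4.3.3 were used.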

Additional observations from a re-analysis of the deposited data

How the results depend on the processing

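No paired analysis was possible because each genotype had 1 array. A median was taken as moved when it shifted by more than 0.0951 on the log2 scale, the median SD between probes of the same gene, and a count when it changed by more than 1.5 times. Under 14 alternatives, 140 group medians and counts stayed within these limits and 28 moved. Some alternatives could hardly move a member value, so the number that stayed overstates stability. The deposited table divides the same signal by nearly the same constants, and no member probe carried an outlier mark. The mean and the median over probes are the same for members, which had at most 2 probes each. Without scaling the medians were -0.18 for all lysosomal genes, -0.13 for the pump, -0.11 for V1, -0.0923 for V0, -0.13 for cathepsins, -0.30 for membrane proteins and -0.21 for all measured genes. With spike-in scaling they were -0.10, -0.0509, -0.0282, -0.010, -0.0444, -0.21 and -0.12 in the same order. Relative to all measured genes, these 2 settings left each median as reported, as they must, since each shifts all genes by the same amount. Quantile scaling can change these differences: relative to all measured genes the cathepsin median was -0.03 with it, against 0.08 as reported. Quantile scaling put V0 at 0.0480 and cathepsins at 0.0034. Among probes above the median signal, the membrane proteins were at 0.0818.

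Of the counts, genes at least 2-fold higher numbered 2 without the filter on dim probes and 2 when probes were counted singly; at least 2-fold lower numbered 1 without scaling, 1 with spike-in scaling and 1 by probe. At least 1.5-fold higher numbered 2 with median scaling, 2 with quantile scaling, 3 without the dim-probe filter and 2 by probe. At least 1.5-fold lower numbered 1 with normexp and 1 among probes above the median signal. Mcoln1 turned to 0.23 by its brightest probe and to 0.23 among probes above the median signal, since both drop the AK008732 probe. Leaving out background-marked spots, chosen after seeing the data, removed Ctsw and moved none of the other counts or medians past the limits. Counted singly, the probes past 2-fold were both Atp6v0d2 probes, which were higher, and the AK008732 probe, which was lower. The cause of the remaining shifts was not tested. Dim probes (Atp6v1e2, Atp6v1g2, Atp6v1g3, Ctsg, Mcoln2) are limited by their signal over background.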

Other observations

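Genes with and without an E-box can be set side by side as a description. The 11 measured lysosomal genes with CACGTG in a promoter window had a median log2 ratio of 0.11 (from -0.996 to 0.52), and the 20 measured genes with a window but no match had 0.02 (from -0.73 to 0.56). The 2 ranges overlap almost wholly, and Atp6v0d2 had no entry among the windows.

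The array holds further probes described as lysosomal genes under other names. A probe named ENSMUST00000139857, described as the V0 a1 subunit, read 0.0699 in the KO pool and 0.0581 in the WT pool, a log2 ratio of 0.27, beside 0.26 for the Atp6v0a1 probe. A probe for a predicted Mcoln3 transcript, ENSMUST00000039450, was not well above background on either array, and neither was the cathepsin L-like gene Ctsll3. The placental cathepsins Ctsj, Ctsq, Ctsr, Cts3, Cts6, Cts7 and Cts8 were not well above background on either array. Ctsm, another of the placental cathepsins, was measured, with 0.0269 in the KO pool and 0.0278 in the WT pool, a log2 ratio of -0.04.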
